A study of Mus musculus with 8 samples.

Results

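Adult mouse hearts were compared for 7 genes known for expression in the atria: Nppa, Myl4, Myl7, Sln, Bmp10, Dkk3 and Stard10. The 7 genes were chosen from their levels in these same hearts, where several of them varied widely from heart to heart, so their levels and fold changes are given as a description and carry no test. Of the 7, 6 were present among the 13227 genes of the count data and Bmp10 was not analysed here; all 6 passed the filter on low counts, which left 13226 genes. The hearts came from male FVB/N mice at 3 months of age, per the labels: 4 FASTKD1 transgenic hearts, lettered A, B, C and E, and 4 non-transgenic hearts, lettered A, B, D and E. FVB/N is an inbred strain much used for transgenesis. The series title calls the overexpression of FASTKD1, a mitochondrial RNA-binding protein, cardiac-specific; the sources used here give neither the promoter that drives it nor the number of founder lines. Each library is labelled as heart, with no word on whether atria were included, trimmed or pooled. RNA was taken from homogenised tissue and counted per gene, so for every value below fewer cells of a type and less RNA per cell cannot be told apart.

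Atrial and ventricular myocytes build the same sarcomere from different parts. In the adult mouse the atrial chambers use their own essential and regulatory myosin light chains, store the natriuretic peptide ANP in granules, and restrain the calcium pump of the sarcoplasmic reticulum with sarcolipin, where ventricular myocytes rely on phospholamban. The light chains are fixed parts of the myosin head, ANP is a hormone that lowers blood volume and pressure, and the ventricle can switch on its gene under load, as it can that of the related peptide BNP. The chamber programs are set by transcription factors of the T-box, GATA, NKX2-5 and MEF2 families together with serum response factor, which binds the CArG box.

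The start regions of 2 members are shown because they are the textbook atrial promoters of the group, those of the hormone gene Nppa and of the regulatory light chain gene Myl7. Each runs from 250 bases before to 50 bases after the annotated start, from RefSeq on GRCm38.p6, and 5 of the 7 genes had an entry. Capitals mark letters that match a searched motif on either strand: GATAA for the zinc-finger factors of that family, the letters AAGTG for NKX2-5, the letters AGGTGT for T-box factors, the letters TATAAA for the TATA box, and, by name, the CArG and MEF2 motifs. The Nppa window is chr4:148000472-148000771 on the plus strand and the Myl7 window is chr11:5898733-5899032 on the minus strand.
Nppa: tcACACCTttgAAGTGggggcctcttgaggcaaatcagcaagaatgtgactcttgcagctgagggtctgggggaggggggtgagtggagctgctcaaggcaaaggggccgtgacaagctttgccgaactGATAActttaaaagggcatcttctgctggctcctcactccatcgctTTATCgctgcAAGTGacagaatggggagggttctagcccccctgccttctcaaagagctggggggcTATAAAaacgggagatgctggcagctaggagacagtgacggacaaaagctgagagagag
Myl7: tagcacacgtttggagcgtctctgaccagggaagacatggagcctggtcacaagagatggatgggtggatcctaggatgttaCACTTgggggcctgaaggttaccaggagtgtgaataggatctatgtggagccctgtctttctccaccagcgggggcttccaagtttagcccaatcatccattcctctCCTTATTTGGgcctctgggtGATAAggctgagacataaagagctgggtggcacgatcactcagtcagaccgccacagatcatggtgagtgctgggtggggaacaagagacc
The Nppa window held GATAA and AAGTG letters, the T-box letters and a TATA box just ahead of the annotated start, and the Myl7 window held a CArG box with GATAA letters close behind it. No 2 of these matches overlapped. Of 32851 promoters of the same length, 1.63% held the CArG motif, 13.7% the T-box letters, 13.6% the TATA letters, 25.4% GATAA, 46.4% AAGTG and 3.69% the MEF2 motif. The Stard10 window held GATAA and the Myl4 window AAGTG, with no other match in either. These letter matches describe the windows and say nothing of binding in these hearts.

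Library totals lay between 44584359 and 55769859 counts in the transgenic hearts and between 45802079 and 50830215 in the non-transgenic hearts. CPM scales counts to a common library size, here with edgeR's TMM method. The targeted gene checked the labels: Fastkd1 stood at 10026, 9341, 8845 and 11516 CPM in transgenic hearts A, B, C and E, against 26.3, 30.2 and 33.8 CPM in A, B and E of the non-transgenic group. The library labelled non-transgenic D had 192 CPM of Fastkd1 from 10594 counts. It also had 0 counts over 4 Y-linked genes, where every other library had 10372 or more, although all mice are labelled male. That library stands high for every atrial gene below, and group means and fold changes of the atrial genes are therefore also given without it.

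The atrial genes varied widely among hearts of the same genotype, and the top of the order was the same for all. All 6 were highest in transgenic heart A and next highest in the library labelled non-transgenic D, and every gene overlapped between the groups. Transgenic heart A stood highest for 12.8% of all 13226 genes, and for 2.59% (342 genes) it was highest with the library labelled non-transgenic D second. None of the 6 was called different between transgenic and non-transgenic hearts (0 of 6). Over all genes, edgeR's quasi-likelihood test with Benjamini-Hochberg adjustment at 0.05 called 1.01% higher (133) and 0.242% lower (32), 1421 genes had an unadjusted p under 0.05, and 7.38% of genes did not overlap between the groups. Of the atrial genes, 0 of 6 were free of overlap.

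**Figure D1:**
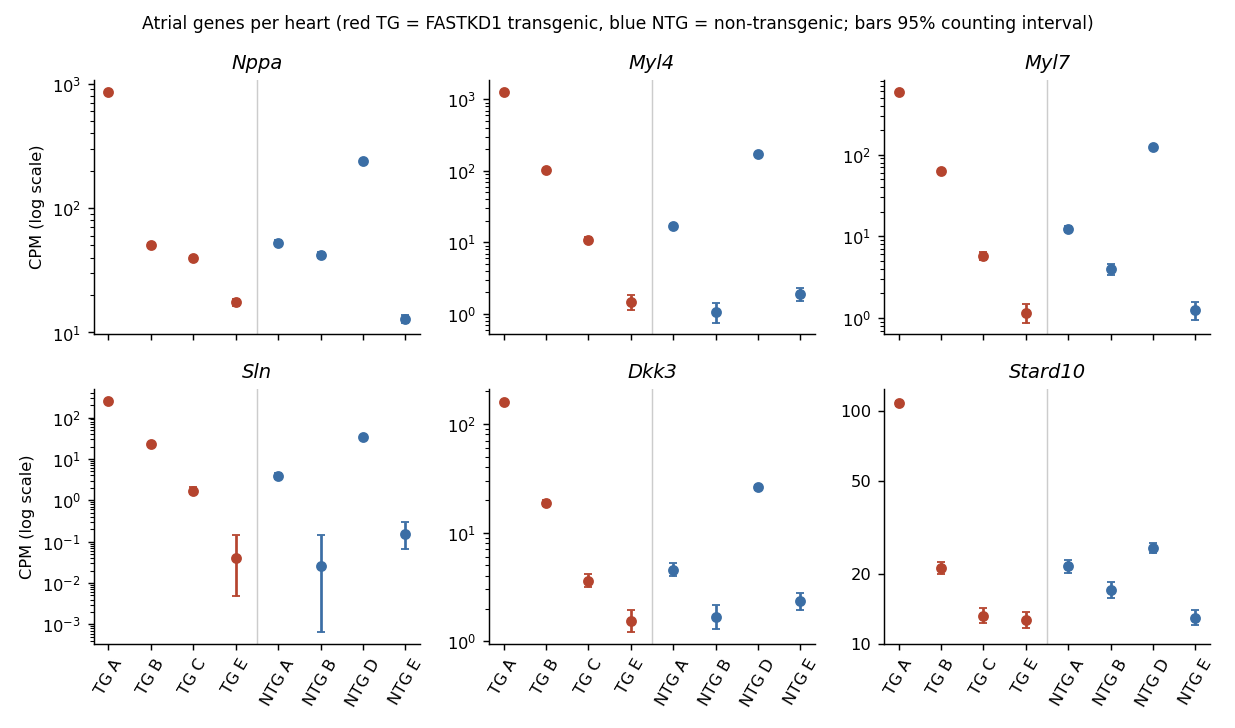
CPM (log axis) of the 6 measured atrial genes in each heart, with FASTKD1 transgenic hearts (TG, red) left of non-transgenic hearts (NTG, blue) and bars for the 95% counting interval. Each panel has its highest point in TG A and its second in NTG D, while TG E, NTG B and NTG E lie low.

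Nppa encodes the precursor of ANP (ENSMUSG00000041616; GRCm38 chromosome 4, 148000722 to 148002079, plus strand). It stood at 858, 50.6, 39.7 and 17.4 CPM in transgenic hearts A, B, C and E, against 52.8, 41.9, 241 and 12.9 CPM in non-transgenic A, B, D and E. Heart A of the transgenic group was thus alone far above the rest, the library labelled D stood apart among the non-transgenic hearts, and the other 6 hearts lay within 12.9 to 52.8 CPM. The means were 242 ± 412 CPM in transgenic and 87.0 ± 104 CPM in non-transgenic hearts (n = 4 each, SD), with an SD above the mean in both groups, and without the library labelled D the non-transgenic mean was 35.9 ± 20.6 CPM (SD, n = 3). Its log2 fold change came to 1.47 (SE 1.22), and came to -1.28 without transgenic heart A and 2.74 without the library labelled D. With both left out it was 0.00.

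Myl4 encodes the atrial essential light chain (ENSMUSG00000061086; chromosome 11, 104550663 to 104595753, plus strand). Its levels were 1289, 104, 10.96 and 1.46 CPM in transgenic hearts A, B, C and E, against 17.0, 1.05, 175 and 1.88 CPM in non-transgenic A, B, D and E. Myl7, the atrial regulatory light chain gene (ENSMUSG00000020469; chromosome 11, 5896637 to 5898782, minus strand), had 590, 62.9, 5.73 and 1.154 CPM in the transgenic hearts and 12.3, 3.94, 123 and 1.24 CPM in the non-transgenic hearts in the same order. Both genes thus spread over each group from near 1 CPM to over 100 CPM, and transgenic heart B came next after the top pair. Myl4 averaged 351 ± 627 CPM in transgenic and 48.6 ± 84.3 CPM in non-transgenic hearts, and Myl7 165 ± 285 and 35.1 ± 58.7 CPM (n = 4 each, SD). The log2 fold changes were 2.85 (SE 1.89) for Myl4 and 2.23 (SE 1.70) for Myl7. The non-transgenic means without the library labelled D were 6.64 ± 8.96 CPM for Myl4 and 5.81 ± 5.74 CPM for Myl7 (SD, n = 3). Without transgenic heart A the log2 fold changes were -0.32 and -0.60, and without the library labelled D 5.72 and 4.83.

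Sln encodes sarcolipin, the small inhibitor of the SERCA calcium pump (ENSMUSG00000042045; chromosome 9, 53850164 to 53854560, plus strand). It had the widest span of the group, with 251, 23.5, 1.72 and 0.0405 CPM in transgenic hearts A, B, C and E, against 3.83, 0.0256, 34.4 and 0.152 CPM in non-transgenic A, B, D and E. The low ends are a few reads: 2 counts in transgenic heart E, 1 count in non-transgenic heart B and 8 counts in non-transgenic heart E. The ratio of transgenic heart A to non-transgenic heart B was 9790, with a 95% counting interval of 1757 to 386706 that covers counting error only. The means were 69.0 ± 122 CPM in transgenic and 9.60 ± 16.6 CPM in non-transgenic hearts (n = 4 each, SD). Its log2 fold change came to 2.83 (SE 1.87), and it was -0.21 without transgenic heart A and 5.69 without the library labelled D, where the non-transgenic mean was 1.34 ± 2.16 CPM (SD, n = 3).

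Dkk3 encodes a secreted glycoprotein related to the Dickkopf inhibitors of WNT signalling (ENSMUSG00000030772; chromosome 7, 112116017 to 112159057, minus strand). It stood at 159, 18.6, 3.62 and 1.54 CPM in transgenic hearts A, B, C and E, against 4.56, 1.69, 26.2 and 2.34 CPM in non-transgenic A, B, D and E. Stard10, a START-domain protein that carries phospholipids between membranes (ENSMUSG00000030688; chromosome 7, 101317086 to 101346626, plus strand), had 108, 21.2, 13.2 and 12.6 CPM in the transgenic hearts and 21.5, 17.1, 25.9 and 13.0 CPM in the non-transgenic hearts in the same order. Stard10 had the narrowest span, its highest heart being 8.57-fold above its lowest, where Nppa spanned 66.4-fold and Dkk3 104-fold. Dkk3 averaged 45.8 ± 76.1 CPM in transgenic and 8.69 ± 11.7 CPM in non-transgenic hearts, and Stard10 38.8 ± 46.4 and 19.4 ± 5.58 CPM (n = 4 each, SD). The log2 fold change of Dkk3 was 2.38 (SE 1.34), and that of Stard10 1.0 (SE 0.64). Without transgenic heart A they were -0.15 and -0.30, and without the library labelled D 3.99 and 1.17. The non-transgenic means without that library were 2.86 ± 1.502 CPM for Dkk3 and 17.2 ± 4.29 CPM for Stard10 (SD, n = 3).

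Levels per kilobase of exon put the genes on 1 scale that depends on the length used, all annotated exons merged. That length was 4637 bases for Myl4 and 590 for Myl7. In transgenic hearts Myl4 stood above Myl7 in mean CPM (351 against 165) and below it per kilobase. In transgenic hearts the mean level was 280 CPM per kb for Myl7, 279 for Nppa, 75.8 for Myl4, 52.3 for Sln, 16.0 for Stard10 and 13.6 for Dkk3. In non-transgenic hearts it was 101 CPM per kb for Nppa, 59.5 for Myl7, 10.5 for Myl4, 8.0 for Stard10, 7.28 for Sln and 2.59 for Dkk3. Without the library labelled D, the non-transgenic means were 41.5 CPM per kb for Nppa, 9.85 for Myl7, 7.103 for Stard10, 1.43 for Myl4, 1.01 for Sln and 0.852 for Dkk3, so that Stard10 stood above Myl4. With all 4 hearts, the SD was of the size of the mean or above it for every gene but Stard10 in the non-transgenic group, and neighbours in either order did not differ beyond their spread. Exons of Nppa and Myl4 overlap those of the opposite-strand genes Gm13054 and Gm22000, neither of which is among the counted genes. The sources used here do not say whether the counting used strand.

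The median genotype difference was negative without transgenic heart A, but positive again once the library labelled non-transgenic D was also left out. The median log2 fold change of the 6 genes was 2.30, beside 0.01 over all genes tested, and it was -0.31 without transgenic heart A, 4.41 without the library labelled non-transgenic D and 1.73 without both. With both left out, the values were 2.55 for Myl4, 2.65 for Sln, 2.0 for Myl7 and 1.46 for Dkk3, with transgenic heart B then the highest for each, and -0.13 for Stard10. No gene of the 6 was called in any of the 8 fits that left out a single heart, nor with both left out.

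**Figure D2:**
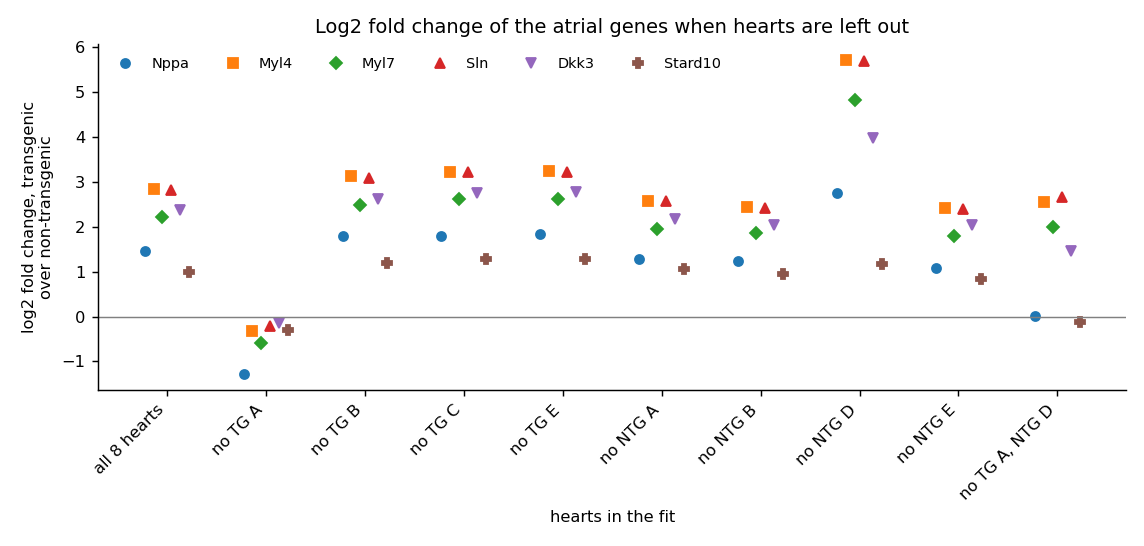
Log2 fold change, transgenic over non-transgenic, of the 6 atrial genes (symbols) with all 8 hearts, with each heart left out and with TG A and NTG D both left out. All 6 values lie below 0 without TG A and are at their highest for 5 of the genes without NTG D.

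The 6 genes together took 0.322%, 0.0287%, 0.00795% and 0.00357% of all counts in transgenic hearts A, B, C and E, against 0.0103%, 0.00560%, 0.0693% and 0.00326% in non-transgenic A, B, D and E. Their summed level was 3256 CPM in transgenic heart A and 31.5 CPM in non-transgenic heart E, the highest and lowest of the 8. An atrial index was taken for each heart as the mean log2 CPM of the 6 genes. It was 8.55, 5.25, 2.95 and 0.94 in transgenic hearts A, B, C and E, against 3.67, 1.41, 6.14 and 1.26 in non-transgenic A, B, D and E. The hearts thus formed a ladder that alternated between genotypes, from transgenic heart A down through the library labelled non-transgenic D, transgenic B, non-transgenic A, transgenic C, non-transgenic B and E, to transgenic E.

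The share of each heart in the excess above the lowest heart was close for some genes and not for others. Taking the excess over the lowest heart as 100% in transgenic heart A, transgenic heart B held 8.02% for Myl4, 10.5% for Myl7, 9.35% for Sln, 10.8% for Dkk3 and 9.01% for Stard10, but 4.46% for Nppa. The library labelled non-transgenic D held 13.5% for Myl4, 13.7% for Sln, 13.9% for Stard10 and 15.6% for Dkk3, with Myl7 at 20.7% and Nppa at 26.9%. Non-transgenic heart A held 1.24% to 1.91% for Myl4, Myl7, Sln and Dkk3, with Nppa at 4.72% and Stard10 at 9.34%. Transgenic heart C held 0.64% to 3.16%. Nppa was thus relatively low in transgenic heart B and relatively high in the library labelled D, and Stard10 relatively high in non-transgenic heart A.

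**Figure D3:**
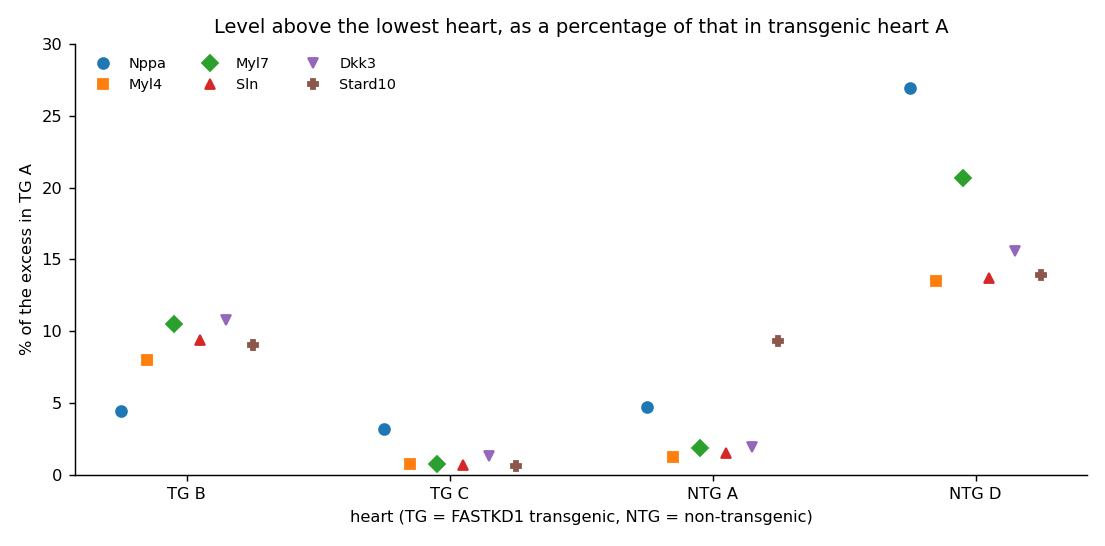
Level of each atrial gene above its lowest heart as a percentage of the same excess in TG A, for the 4 hearts with an intermediate index (transgenic left, non-transgenic right). Within TG B, 5 genes lie between 8.02% and 10.8%; within NTG D, 4 lie between 13.5% and 15.6%, with Myl7 and Nppa above.

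Ratios between member counts also differed in how far they moved. Where both genes had at least 100 counts, Myl4 over Sln was 5.14, 4.45 and 6.35 in transgenic hearts A, B and C, against 4.43 and 5.07 in non-transgenic heart A and the library labelled D. Myl4 over Myl7 was 2.18, 1.66 and 1.91 in those transgenic hearts and 1.38 and 1.42 in those non-transgenic hearts. Across these hearts, in which Myl4 itself ran from 10.96 to 1289 CPM, the first ratio thus stayed between 4.43 and 6.35 and the second between 1.38 and 2.18. Dkk3 over Sln was 0.636, 0.791 and 2.098 in the same transgenic hearts and 1.19 and 0.761 in the same non-transgenic hearts. In non-transgenic heart B, below that minimum, Myl4 over Myl7 was 0.266, from 41 and 154 counts. Nppa over Myl4 moved further, with 0.67, 0.48 and 3.62 in transgenic hearts A, B and C, against 3.11 and 1.38 in non-transgenic heart A and the library labelled D.

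The paired light chains give a scale for these levels against the ventricular form. Myl2 and Myl3 encode the ventricular regulatory and essential light chains. Per kilobase of exon, Myl7 was 19.5% of Myl7 plus Myl2 in transgenic heart A, 2.104% in B, 0.216% in C and 0.0419% in E, against 0.292%, 0.0789% and 0.0368% in non-transgenic A, B and E and 3.71% in the library labelled D. In counts, the share in transgenic heart A was 6.82% (95% Wilson interval 6.74% to 6.90%). Myl4 was 15.4%, 1.14%, 0.133% and 0.0172% of Myl4 plus Myl3 per kilobase in transgenic hearts A, B, C and E, against 0.135%, 0.0116% and 0.0193% in non-transgenic A, B and E and 1.88% in the library labelled D. In counts, the Myl4 share in transgenic heart A was 29.2% (95% Wilson interval 29.0% to 29.4%). The shares per kilobase depend on exon length, taken as all annotated exons merged. That length was 4637 bases for Myl4 and 2044 for Myl3, against 590 for Myl7 and 1950 for Myl2. Both pairs put the 8 hearts in the same upper order, with transgenic heart A, the library labelled non-transgenic D and transgenic heart B on top.

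**Figure D4:**
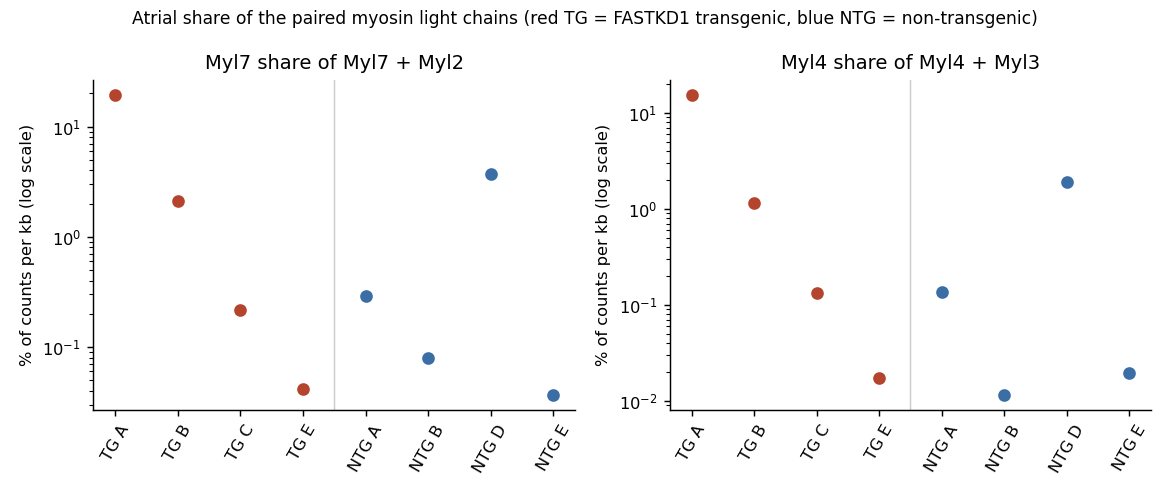
Share of the atrial form in each pair of myosin light chains, in percent of counts per kb (log axis), with transgenic hearts (red) left and non-transgenic hearts (blue) right. The share is 19.5% and 15.4% in TG A and below 4% in every other heart.

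The ventricular light chain gene Myl2 had a slope on the index of -0.03 (SE 0.03), which did not pass the test. Within each genotype it was lowest in the heart with the highest index, with a Pearson's r of -0.45 with the index. Myl2 had 8068, 9672, 8746 and 9108 CPM in transgenic hearts A, B, C and E, against 13822, 16506, 10531 and 11092 CPM in non-transgenic A, B, D and E. The groups did not overlap, and the log2 fold change of -0.55 (SE 0.15) did not pass the test (edgeR adjusted p = 0.158). Of 12 ventricular myocyte genes, 0 were called by genotype and 0 with the index, where 1.01% of all genes were called higher, 0.242% lower and 0.212% with the index, with a median log2 fold change of -0.25 and a median slope on the index of -0.01. Transgenic heart A was lowest of all 8 for Myl2 and for Myl3, with 3132 CPM of Myl3.

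Genes outside the group were then set against the index. A slope on the index was fitted for every gene with genotype in the same model, and edgeR called 28 of 13220 non-member genes (0.212%), 27 of them rising with the index and 1 falling, while 652 had an unadjusted p under 0.05. The median slope over all genes was -0.00, in log2 units per unit of index. All 27 rising genes were highest in transgenic heart A, and all but Kif1a, Cpne5 and Mfap4 were second highest in the library labelled non-transgenic D. That order follows largely from how the genes were called, since these libraries have the highest index values (8.55 and 6.14). The count depended on which hearts were in the fit: 4 genes (Mybphl, Sbk2, Sbk3 and Sphkap) were called without transgenic heart A, 10 without transgenic heart C, 12 without E and 17 without B. Without non-transgenic heart A 19 were called, without B 42 and without E 14. Without the library labelled non-transgenic D 31 were called, 20 of them among the 28, and Mybphl alone was called without both that library and transgenic heart A. None of the 28 was among the 165 genes called by genotype without the index in the model.

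The nearest gene to the index was Mybphl, a myosin-binding protein gene known from mouse atrium and conduction system. It stood at 128, 13.1, 0.913 and 0.0202 CPM in transgenic hearts A, B, C and E, against 1.36, 0.102, 24.5 and 0.0381 CPM in non-transgenic A, B, D and E. The order of the 8 hearts was that of the index without exception. At the low end that order rests on 4, 2 and 1 counts of Mybphl, in non-transgenic hearts B and E and transgenic heart E. Its slope was 1.44 (SE 0.09; edgeR adjusted p = 8.54e-05), beside slopes of 1.43 for Sln, 1.33 for Myl4, 1.19 for Myl7, 0.86 for Dkk3, 0.71 for Nppa and 0.35 for Stard10, which are descriptions because those genes make up the index. The genotype difference of Mybphl was 2.42 (SE 1.82; edgeR adjusted p = 0.725).

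The next steepest slopes among called genes were 0.92 for Sbk3, a kinase gene of the SH3-binding-domain family, 0.86 for Mlana, known from pigment cells, 0.85 for Tmem163, a zinc transporter gene, and 0.79 for the protocadherin gene Pcdh20. Sphkap, whose protein anchors protein kinase A, had 0.78, Ppp1r1b, a phosphatase inhibitor gene known from striatal neurons, 0.71, and Fgf12, a modulator of sodium channels, 0.65 (edgeR adjusted p from 0.000201 to 0.0455 for these 7). Sbk3 stood at 75.4, 4.76, 1.099 and 0.547 CPM in transgenic hearts A, B, C and E, against 4.65, 3.64, 31.8 and 1.01 CPM in non-transgenic A, B, D and E. Its relative Sbk2 (slope 0.50) had 71.9, 8.56, 5.85 and 3.34 CPM in the transgenic hearts and 14.1, 9.22, 25.4 and 10.5 CPM in the non-transgenic hearts in the same order. Both thus repeated the top of the ladder, with transgenic heart B close to non-transgenic heart A for Sbk3. For Sbk2, transgenic heart B (index 5.25) lay below all 4 non-transgenic hearts, among them B and E (index 1.41 and 1.26). Pcdh20 also departed from the ladder in the lower hearts. It had 7.80, 2.28 and 2.23 CPM in B, C and E of the transgenic group, against 0.181, 0.435 and 0.285 CPM in non-transgenic A, B and E.

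By likeness of pattern, measured as Pearson's r with the index over the 8 hearts among genes that spanned at least 2 log2 units, the 12 nearest genes were Mybphl, Sphkap, Cacna2d2, Kif1a, Ppp1r1b, Igsf23, Mlana, Gm32849, Comp, Adcy1, Tmem163 and Plvap. Their r ran from 0.990 to 0.921, which describes 8 hearts that share the same extreme library. Without transgenic heart A, 8 of these 12 were again among the 12 nearest. Cacna2d2, an auxiliary subunit gene of calcium channels, had 16.1, 5.44, 2.99 and 1.80 CPM in transgenic hearts A, B, C and E, against 5.62, 2.56, 6.09 and 2.30 CPM in non-transgenic A, B, D and E. The 1 called gene that fell with the index was Acot2, which encodes a mitochondrial acyl-CoA thioesterase, with a slope of -0.14 and 62.8, 76.3, 98.3 and 125 CPM in transgenic hearts A, B, C and E, against 53.1, 71.8, 40.6 and 60.7 CPM in non-transgenic A, B, D and E. Within each genotype, the heart with the highest index had the lowest Acot2. With the index in the model Acot2 was also called by genotype (log2 fold change 0.84, edgeR adjusted p = 0.00208), and its r with the index was -0.49.

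**Figure D5:**
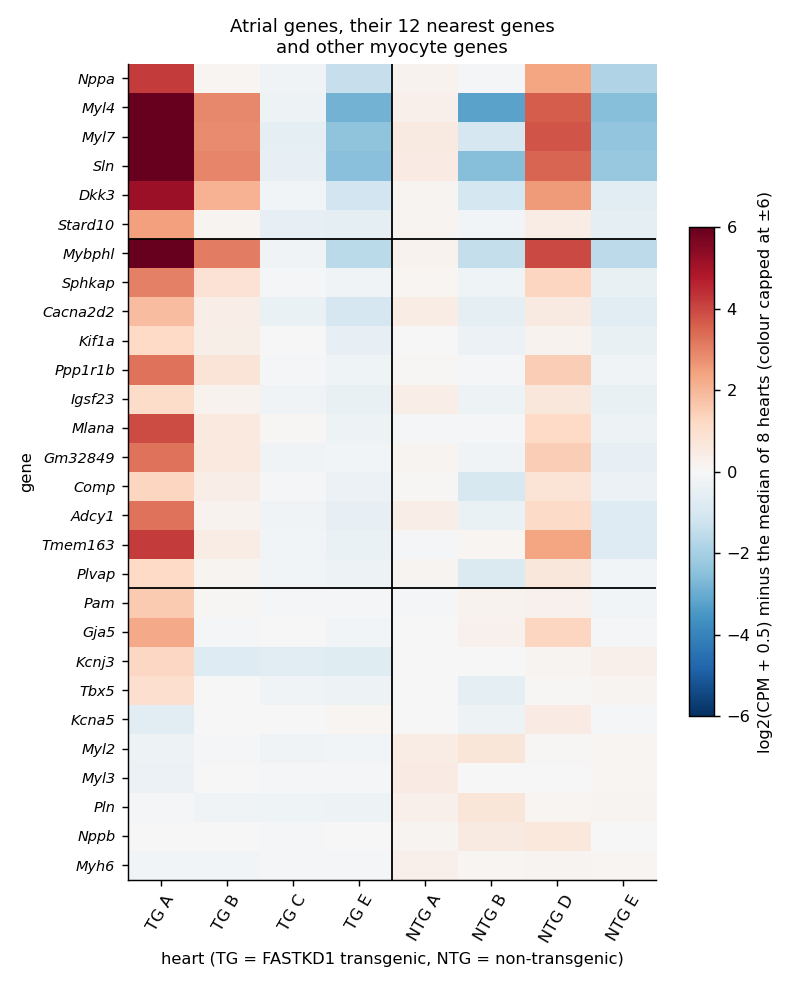
Log2(CPM + 0.5) minus the median of the 8 hearts for the 6 atrial genes (top), the 12 genes nearest to their index (middle) and other myocyte genes (bottom), transgenic hearts left. Red marks levels above the median; TG A, NTG D and, for most of the atrial genes, TG B are red at the top, while Myl2, Myl3, Pln, Nppb and Myh6 stay pale.

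Other genes known from atrial myocytes followed the ladder only in part. Of 17 listed, 16 were tested; 0 were called by genotype and 1, Mybphl, with the index, and transgenic heart A was highest for 9 of 16. Their median slope was 0.09 and their median log2 fold change 0.02, beside -0.00 and 0.01 over all genes. Pam, the enzyme that amidates peptides and a major membrane protein of atrial granules, stood at 2426, 864, 794 and 762 CPM in transgenic hearts A, B, C and E, against 787, 952, 983 and 741 CPM in non-transgenic A, B, D and E. The connexin-40 gene Gja5, used in atrial and conduction cells and in arterial endothelium, had 41.3, 7.58, 7.96 and 7.25 CPM in the transgenic hearts and 8.52, 10.1, 20.99 and 7.92 CPM in the non-transgenic hearts in the same order. For Pam only transgenic heart A stood apart, and for Gja5 also the library labelled non-transgenic D, but neither slope passed the test (0.17 and 0.30; edgeR adjusted p = 0.343 and 0.0931).

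Kcnj3, a subunit of the acetylcholine-activated potassium channel, had 130 CPM in transgenic heart A and 32.2 to 34.3 CPM in the other 3 transgenic hearts, against 54.5 to 69.0 CPM in the non-transgenic hearts. Tbx5, a T-box factor gene, had 43.7 CPM in transgenic heart A and 17.3 to 20.7 CPM in the others, against 14.3 to 23.9 CPM in non-transgenic hearts. Kcna5, which encodes an ultra-rapid potassium channel, had 6.86 CPM in transgenic heart A, the lowest of the 8, and 11.2 to 12.3 CPM in the other transgenic hearts, against 16.1 CPM in the library labelled non-transgenic D, the highest, and 9.17 to 11.8 CPM in the other non-transgenic hearts. None of these 3 slopes passed the test.

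In the pathways around the members, calls are counted beside the 1.01% of all genes called higher, 0.242% called lower and 0.212% called with the index, so that 0 or 1 call in a list of this size says nothing particular to it. Of 10 tested genes of the natriuretic peptide pathway, 0 were called by genotype or index. Nppb, which encodes BNP and lies next to Nppa in the genome, had 257, 269, 241 and 256 CPM in transgenic hearts A, B, C and E, against 295, 384, 406 and 256 CPM in non-transgenic A, B, D and E (log2 fold change -0.39, SE 0.14; edgeR adjusted p = 0.350). Transgenic heart A, with the highest Nppa, thus had Nppb at the level of its group. The library labelled non-transgenic D, second highest for Nppa, had the highest Nppb of all hearts. Corin, the protease that cuts the ANP precursor, had a log2 fold change of -0.15, and Npr3, the receptor that clears the peptides, had 111 CPM in transgenic heart A, against 47.0 to 67.8 CPM in all other hearts.

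Of the sarcolipin list, 3 of 8 genes were tested and 0 called: Pln, the ventricular inhibitor of the pump, had 1699, 1586, 1552 and 1486 CPM in transgenic hearts A, B, C and E, against 2239, 3075, 1984 and 2060 CPM in non-transgenic A, B, D and E (log2 fold change -0.57, SE 0.14; edgeR adjusted p = 0.118). Pln therefore did not overlap between the groups, but stayed near its group's level in transgenic heart A. Of 16 genes listed around BMP10, a ligand made by atrial myocytes, only Tcap, a Z-disc gene, was lower (log2 fold change -0.50, edgeR adjusted p = 0.0319). Tcap stood at 723 ± 48.1 CPM in transgenic and 1024 ± 76.0 CPM in non-transgenic hearts (n = 4 each, SD). Of 10 tested START-domain genes besides Stard10, Stard5, a sterol-binding member, was higher (0.73, SE 0.12; edgeR adjusted p = 0.0103), with all 4 transgenic hearts at 9.55 CPM or more and all non-transgenic hearts at 6.63 CPM or less. Of the Dickkopf and WNT co-receptor list, 3 of 8 were tested and 0 called. Of 16 tested cardiac transcription factors, Hand2 was lower (-0.46), at 31.1 ± 2.77 CPM in transgenic and 42.8 ± 1.87 CPM in non-transgenic hearts (n = 4 each, SD; edgeR adjusted p = 0.0353). With a single heart left out, the call of Tcap was lost in the absence of each transgenic heart in turn or of heart A among the non-transgenic (edgeR adjusted p up to 0.142). That of Hand2 was lost in the absence of transgenic heart A, B or E, or of hearts A or E among the non-transgenic (up to 0.154), and that of Stard5 in the absence of non-transgenic heart E (0.0529). None of Tcap, Stard5 and Hand2 had a slope on the index that passed the test. With the index in the model, Hand2 was no longer called by genotype (edgeR adjusted p = 0.0869). Tcap and Stard5 still were (edgeR adjusted p = 0.04995 and 0.0231). Of 8 tested fetal and stress program genes, Uchl1, a ubiquitin hydrolase gene, was higher (log2 fold change 1.11), and in all 8 fits that left out a single heart.

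Markers of other cells and tissues moved with the ladder to different degrees, and their part in the result was not tested. Of 9 epicardial and mesothelial genes, transgenic heart A was highest for 7, and their summed level was 42.2 to 155 CPM in transgenic and 32.0 to 117 CPM in non-transgenic hearts. That sum was highest in transgenic heart A but next highest in non-transgenic heart B, at 117 CPM, a heart with an index of 1.41. Upk3b, a mesothelial marker, had 57.3, 24.2, 11.96 and 19.5 CPM in transgenic hearts A, B, C and E, against 21.7, 34.0, 22.2 and 9.12 CPM in non-transgenic A, B, D and E.

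Of 8 tested smooth muscle and great artery genes, transgenic heart A was highest for 6, and 0 were called. Their summed level was 363 to 543 CPM in transgenic and 256 to 319 CPM in non-transgenic hearts. That sum was highest in transgenic heart C, at 543 CPM, with 427 CPM in transgenic heart A. Acta2, from this list, had 375 CPM in transgenic heart C and 222 CPM in transgenic heart A. Of 10 endothelial and endocardial genes, Plvap, a component of endothelial diaphragms, was called with the index (slope 0.21), and the list summed to 832 to 967 CPM in transgenic and 846 to 972 CPM in non-transgenic hearts. Comp, a matrix protein of cartilage and tendon, was called among 4 tested cartilage and valve genes (slope 0.28). Of 10 tested genes of the sinoatrial node and conduction system, Cacna2d2 was called with the index and the pacemaker channel gene Hcn4 was not, at 6.98 to 9.20 CPM in transgenic and 6.68 to 18.2 CPM in non-transgenic hearts. Shox2, a node transcription factor gene, had 2.54, 1.90, 0.237 and 0.405 CPM in transgenic hearts A, B, C and E, against 0.181, 0.102, 0.507 and 0.324 CPM in non-transgenic A, B, D and E, and its slope did not pass (0.37; edgeR adjusted p = 0.362). None of 8 lung epithelium genes was among the counted genes, and of 12 skeletal muscle genes only Myl1 was. Of 8 fibroblast and 8 macrophage genes, 0 were called by genotype or with the index, as for 8 tested fat cell genes. The fat cell list had a median slope of 0.35 on the index. Slopes were 0.40 for the hormone gene Adipoq, 0.43 for Cfd, 0.42 for Cidec, 0.40 for Lep and 0.30 for Plin1. They were near 0 and negative for Fabp4 (-0.04), Lipe (-0.04) and Pparg (-0.03), and none of the 8 passed the test. In non-transgenic heart E, Cidec had 3 counts and Lep 2. Cfd, which encodes adipsin, had 5.13, 1.28, 0.643 and 0.769 CPM in transgenic hearts A, B, C and E, against 5.03, 1.43, 3.84 and 0.228 CPM in non-transgenic A, B, D and E. Its highest hearts were thus transgenic heart A, non-transgenic heart A and the library labelled non-transgenic D. Of the 8 fat cell genes, Cfd alone was highest in transgenic heart A. Adipoq, Lep, Cidec and Plin1 were highest in non-transgenic heart A, whose index was 3.67. They had 9.72, 10.02, 5.58 and 2.76 CPM there, against 4.25, 1.36, 3.02 and 2.61 CPM in transgenic heart A.

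Most genotype calls over all genes were kept when the index was held in the model. With it, 130 genes were called higher in transgenic hearts, against 133 without it, and 23 lower, against 32. Of the 165 genes called without the index, 143 were called again. With transgenic heart A and the library labelled non-transgenic D both left out, 276 genes were called, and 148 of the 165 were among them. In the fits that left out a single heart, the count of genes called lower ran from 9, without transgenic heart B, to 72, without the library labelled non-transgenic D.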

How the data were processed

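RNA from 8 mouse hearts was sequenced, 4 FASTKD1 transgenic and 4 non-transgenic, after TruSeq library preparation, per the labels' protocols. The authors deposited whole-number counts per Ensembl gene for each heart, with no normalization. The tools named in the submitters' processing notes are cutadapt 1.15 and TopHat2, and the build is GRCm38 (mm10). The sources used here name no read counter, annotation or strand setting. Each file holds the same 13227 genes. Symbols, positions and exon lengths were those of GENCODE M21, built on GRCm38, which lacked 7 of the identifiers.

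The counts went into edgeR 4.0.16 under R 4.3.3, with the filterByExpr filter, scaling by TMM and two-sided quasi-likelihood F tests, with Benjamini-Hochberg adjustment over all genes and a threshold of 0.05. The SE was worked back from the F statistic as |log2 fold change| over its square root. The atrial index is the mean log2 CPM (prior count 2) of the 6 measured members, and its slope was fitted with genotype in the model. Each heart was taken as 1 animal from its title; p-values measure the spread between these hearts. Intervals (95%) reflect counting error alone. Letters shared between groups were not used as pairs, since nothing in the labels says that they mark shared animals or days.

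The members, gene lists and tests were chosen with earlier results of these data known. Named genes are all members; the 12 genes nearest to the index; among genes called with the index the 8 steepest in each direction; in each list the 4 most abundant, the 4 with the smallest p and any called; and Fastkd1. Of these the text gives those nearest to the atrial pattern. Gja5, Tbx5, Kcna5, Npr3, Cfd, Cidec, Plin1, Sbk2, Cpne5, Mfap4 and some genes of the closing section were named after their values were seen. Alternatives were other scalings, DESeq2 1.42.0, limma 3.58.1, low-count filters, other forms of the index, leaving out hearts, and a block on title letters.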

Additional observations from a re-analysis of the deposited data

Results flagged for a closer look

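Among the 60 genes checked, each in the 4 transgenic and the 4 non-transgenic hearts, 48 of 120 groups held 1 heart far from the other 3, 29 of them through transgenic heart A and 17 through the library labelled non-transgenic D. The value given for each is the gap between that heart and its nearest neighbour as a fraction of the range of the 4 hearts, in CPM. Chance gives about 1 such group in 20 where values are normally distributed and genes are not chosen on these hearts. Many of these genes were chosen because they follow the atrial index. The groups are therefore not independent of each other, and their count is no test.

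In transgenic hearts, heart A stood apart with a gap of Nppa 0.961, Myl4 0.920, Myl7 0.895, Sln 0.907, Dkk3 0.892, Stard10 0.910, Pam 0.939, Gja5 0.979, Kcnj3 0.978, Tbx5 0.869, Nr2f2 0.908, Ccn2 0.897, Npr3 0.886, Stard5 0.859 and Mybphl 0.897, and likewise with Sphkap 0.868, Ppp1r1b 0.902, Mlana 0.951, Gm32849 0.928, Adcy1 0.948, Tmem163 0.964, Sbk3 0.944, Pcdh20 0.926, Fgf12 0.933, Sds 0.865, Sbk2 0.924, Gm48898 0.862, Plekha7 0.965 and Opcml 0.899. In non-transgenic hearts, the library labelled D stood apart with Myl4 0.908, Myl7 0.909, Sln 0.889, Dkk3 0.883, Fastkd1 0.955, Gja5 0.836, Mybphl 0.946, Ppp1r1b 0.914, Mlana 0.899, Tmem163 0.895, Sbk3 0.882, Pcdh20 0.971, Gm48898 0.885, Plekha7 0.976, Opcml 0.870, Ptgfr 0.917 and Cgnl1 0.955. Among these, its Fastkd1 level is the check of its label, and its atrial genes are described above. The 2 remaining groups were Angpt1, a vessel growth factor gene known from atrial myocytes, through non-transgenic heart B (0.908, at 75.0 CPM against 44.9 to 47.7 CPM in the other non-transgenic hearts) and Tcap through transgenic heart C (0.849, the lowest of its group at 652 CPM). Of the atrial genes, all 6 were picked out in transgenic heart A, and all but Nppa and Stard10 in the library labelled non-transgenic D. Those genes were chosen from their levels in these same hearts, so these flags are a description.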

How the results depend on the processing

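The median log2 fold change of the 6 atrial genes kept its sign under the other scalings and tools (1.16 with limma-voom to 2.30) and ranged from -0.31 to 4.41 when a single heart was left out; no atrial gene was called in any of these fits. Genes called higher numbered 133, and 103 to 168 with a heart left out; genes called lower numbered 32, and 9 to 72. The DESeq2 test called 249 higher and 159 lower. With transgenic heart A and the library labelled non-transgenic D both left out, 106 were called lower. Genes called with the index numbered 28, and 4 to 42 with a heart left out, 12 with library totals only, 6 with the hearts' ranks in place of the index, and 1 with both hearts left out, a choice made after seeing the data. Fits with hearts left out hold fewer samples; the cause of the other differences was not tested.

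Hearts with the same letter deviated together at 0.297 for A, -0.085 for B and 0.360 for E. Transgenic A and E each correlated best with the heart of their own letter. These values do not settle whether the letters mark pairs. The letters were not taken as pairs because nothing in the labels says that they are. With a block on title letters, which compares genotypes within A, B and E alone, 103 genes were called higher and 21 lower, 32 were called with the index, and the median of the atrial genes was 3.33. Of the atrial genes, 1 then passed the threshold, Sln (log2 fold change 6.06), against 0 without the block; since the genes were chosen on these hearts, neither count is a test of them. Depth limits Sln and Mybphl in the lowest hearts, where they had fewer than 10 counts. Other genes called with the index also had fewer than 10 counts in 1 heart or more, among them Sphkap, Mlana, Tmem163, Pcdh20 and Ppp1r1b. Sphkap had 7 counts in transgenic heart E, and 5 and 3 in non-transgenic hearts B and E.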
